A study of Mus musculus with 25 samples.

Results

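The cytosolic ribosomal protein genes are described here in microglia of mice that lack Bin1 in neurons. They were chosen by symbol alone: Rpl or Rps followed by digits and an optional a, l, x or y, together with Rpsa, Rplp0, Rplp1 and Rplp2, leaving out the pseudogenes named -ps and the Rps6k kinases. The rule found 82 genes among the 43411 gene ids of the deposited table, 32 of the small subunit and 50 of the large subunit, spread over 19 chromosomes. By annotated type 80 are protein coding and 2, Rps4l and Rpl6l, are processed pseudogenes whose symbols meet the rule. Of the 82 genes, 79 passed the filter on low counts and were tested among 12908 genes. Rpl10l, Rpl3l and Rpl6l stayed under 1 CPM (the counts-per-million scale) in every mouse and were not tested.

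Microglia were sorted as CD11b+ cells with medium CD45 from brains of mice aged 3 months. The 23 mice with values were 6 WT littermates (Bin1flox/wt; Thy1-Cre-; 2 females, 4 males), 7 heterozygous Bin1-cKO mice (Bin1flox/wt; Thy1-Cre+; 4 females, 3 males) and 10 homozygous Bin1-cKO mice (Bin1flox/flox; Thy1-Cre+; 5 females, 5 males), so every mouse, the WT littermates included, carries a floxed Bin1 allele. The strain label joins B6.129S6-Bin1tm2Gcp/J with FVB/N-Tg(Thy1-cre)1Vln/J. The paper used Thy1-Cre to delete Bin1 in forebrain excitatory neurons, which are not the cells that were sequenced. Cre activity in the sequenced cells was not tested here. All WT and heterozygous mice have animal numbers in the 02xx range, while 6 homozygous mice are numbered 03xx and 4 are numbered 04xx, so genotype and number range cannot be told apart.

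Each cytosolic ribosome holds a small subunit, which reads the mRNA, and a large subunit, which joins amino acids, and most of their proteins are needed in a fixed proportion. The mRNAs of these proteins typically begin with a C and a run of pyrimidines, the 5′ terminal oligopyrimidine (TOP) tract, through which mTOR signaling sets how strongly they are translated. Their abundant spliced mRNAs have also been copied back into the genome many times, leaving processed pseudogenes whose sequence can be almost that of the parent gene. A short read from such a stretch has more than 1 possible source.

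The libraries held 10812887 to 16734746 counts a mouse. The microglial list was high in every mouse, with a summed level of 75325 to 116629 CPM over its 16 markers, while the 8 lymphocyte markers reached 1.13 CPM at most. In homozygous against WT mice, 8 of the 16 microglial markers were called lower and 0 higher, and the median of their summed level was 77246 CPM in homozygous and 95532 CPM in WT mice. Compared with WT mice, homozygous mice had 4 of 7 tested neuronal markers called lower (summed level of the list 4.96 to 10.0 CPM against 12.5 to 39.4 CPM) and 12 of 15 immediate-early genes called higher (906 to 14281 CPM against 766 to 944 CPM), the latter led by the replicates F1, F2, M1 and M2. The monocyte and neutrophil list ranged from 12.4 to 56.5 CPM in homozygous mice and from 5.87 to 21.4 CPM in WT mice, with 1 of 5 tested genes, Ccr2, called higher. Lower calls against WT fell on 2 of 6 tested oligodendrocyte, 1 of 4 astrocyte and 1 of 2 endothelial markers. Of 6 tested border macrophage markers 0 were called. Over all genes, 5.66% were called higher and 7.09% lower in this comparison. Bin1 itself, measured in microglia, ranged from 600 to 814 CPM in WT, from 629 to 747 CPM in heterozygous and from 327.6 to 673 CPM in homozygous mice. Its median was 689 CPM in WT, 691 CPM in heterozygous and 469 CPM in homozygous mice. The cause of the lower median of Bin1 in homozygous mice was not tested. Without homozygous F1, F2, M1 and M2, 4 ribosomal protein genes were called higher against WT instead of 6, Rpl30 and Rps7 being lost, and 21 against heterozygous mice, Rps7 and Rpl35a being lost. The share of all genes called in that fit is not given here. The part of the other differences in the results on ribosomal protein genes was not tested.

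Ribosomal protein genes made up a small share of the counts. Together the 82 genes took 0.414% ± 0.0685 (SD, n = 6) of the counts in WT mice, 0.398% ± 0.0439 (SD, n = 7) in heterozygous mice and 0.470% ± 0.0408 (SD, n = 10) in homozygous mice. The lowest, median and highest share were 0.315%, 0.430% and 0.479% in WT, 0.359%, 0.384% and 0.468% in heterozygous, and 0.405%, 0.462% and 0.535% in homozygous mice. The 3 genotypes overlapped, and both WT females lay inside the homozygous range. For scale, Cst3, which encodes cystatin C, had a mean of 36050.5 CPM on its own, against 4323 CPM for all 82 genes summed. In bulk samples a change in the number of cells of a type and a change in RNA per cell cannot be told apart.

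**Figure D1:**
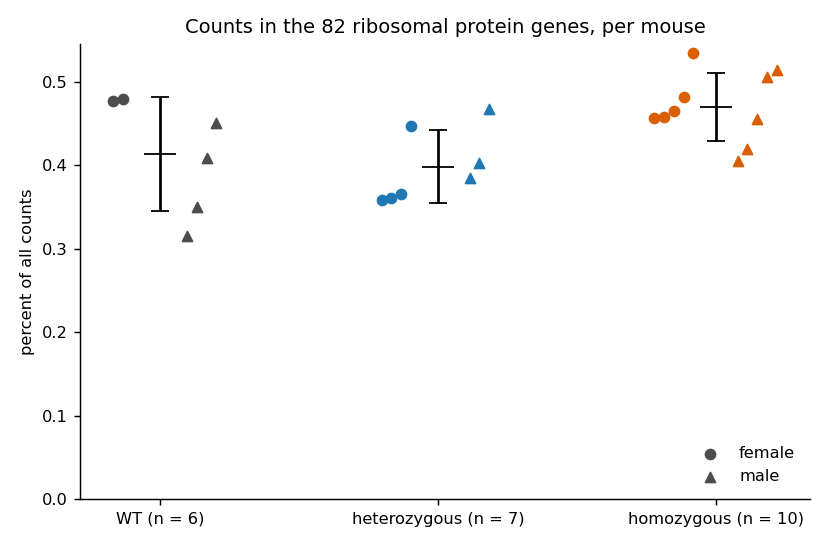
Percent of all counts that fell in the 82 ribosomal protein genes (vertical axis, starting at 0) for each mouse by genotype, with circles for females, triangles for males, and the mean and SD in black. WT mice spread from 0.315% to 0.479% and homozygous mice from 0.405% to 0.535%, so the groups overlap.

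Levels within the class differed widely. Per kilobase of transcript, Rps29, a zinc-binding protein of the small subunit, was the highest (230 CPM per kb), and Rps9 was also high (209 CPM per kb). Among tested genes the lowest were Rpl39l, a copy of Rpl39 (0.961 CPM per kb), Rpl5 (5.51 CPM per kb) and Rpl12 (6.61 CPM per kb). Rpl5 carries ribosomal RNA into the large subunit and, when free, binds Mdm2 with Rpl11, a partner that stood at 39.0 CPM per kb. The mean over mice reached 10 CPM for 74 of the 82 genes and 100 CPM for 10 of them, and the median of the 79 tested genes was 43.7 CPM.

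Some of the lowest values came with a copy that was counted higher than the gene itself. An annotated copy was taken here as a gene outside the rule, a pseudogene by type or a gene named -ps, rt or Gm, that holds at least 10% of the 50-base sequences of a ribosomal protein gene's transcripts, 50 bases being the read length. This definition was chosen after values had been seen. It gave 300 copies of 68 of the 82 genes, of which 71 copies had a mean of at least 1 CPM, and 12 genes had a copy with a higher mean than their own. Rpl5 had a mean of 7.93 CPM and its copy Gm15500 on chromosome 7, which holds 44.2% of its 50-base sequences, 101 CPM. Rpl27 stood at 7.81 CPM beside 38.6 CPM for Rpl27-ps3, and Rps12 at 4.40 CPM beside 11.9 CPM for Rps12-ps3. Over all 82 genes, a median of 35.9% of 50-base sequences also occurred in another annotated gene, from 0% in 3 genes to 95.1% in Rpl35, and 27 genes shared more than 50%. Levels of single genes are therefore assignments of reads among near-identical sequences, and how reads with several matches were divided is not given in the sources used here.

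The first comparison asked how microglia of homozygous Bin1-cKO mice differ from those of WT littermates. At an adjusted p below 0.05 (edgeR's quasi-likelihood test, Benjamini-Hochberg over all 12908 genes), 6 of 79 ribosomal protein genes were higher in homozygous mice and 0 were lower. Those 6 are 7.59% of the genes tested, beside 5.66% of all genes called higher and 7.09% called lower, so the share was near the background. None of the 6 exceeded 1.5-fold, whereas 1.65% of all genes did so upward. The median log2 fold change was 0.06 over the 79 genes and 0.01 over all genes, and 10 of the 79 had an unadjusted p below 0.05, all of them higher, beside 27.1% of all genes at that threshold.

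The 6 genes were Rps28, Rps2, Rps18 and Rps7 of the small subunit and Rpl3 and Rpl30 of the large subunit. All 6 share sequence with other annotated genes, from 28.7% of 50-base sequences in Rps28 to 79.4% in Rps18. The homozygous values of Rps2 and Rpl3 did not shift as a block. In these genes the 10 homozygous mice fell at separate levels, and different mice were high for Rps2 and for Rpl3.

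**Figure D2:**
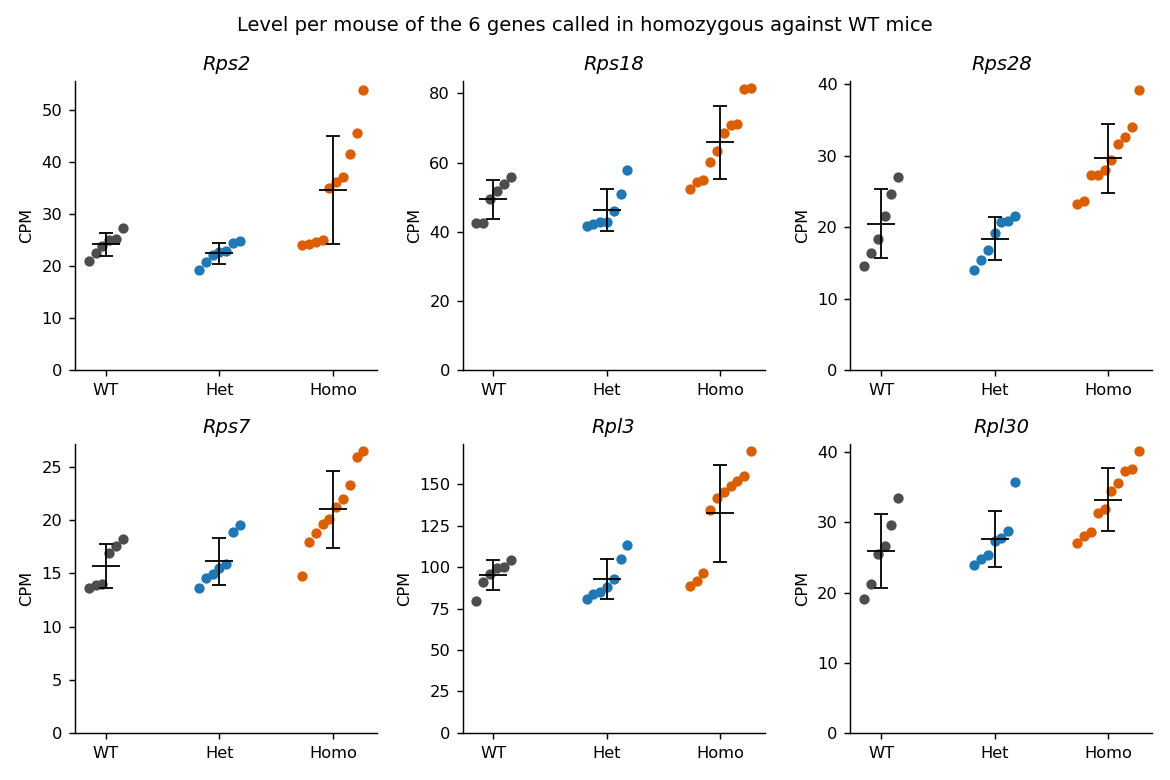
Level in CPM (vertical axes, starting at 0) of the 6 genes called in homozygous against WT mice, 1 point a mouse sorted by value within each genotype, with the mean and SD in black. Rps2 sits at 24.04 to 24.9 CPM in 4 homozygous mice and at 35.0 to 53.9 CPM in 6, and Rpl3 at 88.8 to 96.7 CPM in 3 and at 134 to 170 CPM in 7.

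Rps2 (ENSMUSG00000044533.13, chr17:24718116-24721929, + strand), which lies at the mRNA entry of the small subunit, had a mean of 24.2 CPM ± 2.24 (SD, n = 6) in WT, 22.4 CPM ± 1.98 (SD, n = 7) in heterozygous and 34.7 CPM ± 10.3 (SD, n = 10) in homozygous mice. Against WT this was a rise of 0.54 on the log2 scale, with a standard error (SE) of 0.15 and an adjusted p = 0.0184. The WT mice lay between 20.9 and 27.3 CPM with a median of 24.5 CPM. Homozygous F1, F4, F5 and M5 had 24.9, 24.04, 24.2 and 24.6 CPM, inside the WT range, while F2, F3, M1, M2, M3 and M4 had 37.1, 45.6, 36.1, 35.0, 41.5 and 53.9 CPM, above every WT and heterozygous mouse.

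In exactly those 6 mice the copy Rps2-ps10 was nearly uncounted. Rps2-ps10 (chromosome 18, annotated as a transcribed processed pseudogene) holds 50.6% of the 50-base sequences of Rps2 and matches 874 of the 879 coding bases. It was counted at 0.798, 1.26, 0.898, 0.436, 0.808 and 0.438 CPM in F2, F3, M1, M2, M3 and M4, and at 14.0 to 21.4 CPM in F1, F4, F5 and M5. WT mice ranged from 12.9 to 24.4 CPM and heterozygous mice from 13.1 to 22.5 CPM. The sum of Rps2 and Rps2-ps10 was 42.3 CPM ± 5.88 (SD, n = 6) in WT and 42.5 CPM ± 5.66 (SD, n = 10) in homozygous mice, a difference smaller than the spread.

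Rps18 and Rps28 lie on the same chromosome as Rps2. Rps18 was highest in the same 6 homozygous mice, while for Rps28 those mice overlapped with the other 4. Rps18 (ENSMUSG00000008668.12, chr17:33951999-33956001, - strand), a protein of the head of the small subunit, had 49.4 CPM ± 5.70 (SD, n = 6) in WT and 65.9 CPM ± 10.6 (SD, n = 10) in homozygous mice (0.41 on the log2 scale, SE 0.10, adjusted p = 0.0098). Its lowest, median and highest values were 42.5, 50.8 and 56.0 CPM in WT and 52.5, 66.0 and 81.5 CPM in homozygous mice, 7 of which exceeded all WT mice. Rps28 (ENSMUSG00000067288.10, chr17:33819027-33824562, - strand), which sits near the mRNA exit, had 20.5 CPM ± 4.83 (SD, n = 6) in WT and 29.6 CPM ± 4.88 (SD, n = 10) in homozygous mice (0.54 on the log2 scale, SE 0.14, adjusted p = 0.0102). WT values ran from 14.6 to 27.0 CPM around a median of 20.02 CPM and homozygous values from 23.2 to 39.2 CPM around 28.7 CPM, with 8 of 10 above all WT mice.

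The most counted copies of both genes, on chromosome 13, were missing from the same mice. Gm10260, annotated as protein coding, holds 52.0% of the 50-base sequences of Rps18 and was counted at 0 CPM in homozygous F2, F3, M1, M2, M3 and M4, against 13.4 to 14.7 CPM in F1, F4, F5 and M5, 9.07 to 16.1 CPM in WT and 9.46 to 13.01 CPM in heterozygous mice. Rps18 was 63.3 to 81.5 CPM in those 6 mice and 52.5 to 60.3 CPM in the other 4. Gm10263, a processed pseudogene with 16.8% of the 50-base sequences of Rps28, was counted at 0.12 CPM or less in the 6 mice and at 2.64 to 5.70 CPM in all other mice of the study. The Rps28 values of the 6 mice were 27.3 to 39.2 CPM and those of the other 4 were 23.2 to 27.98 CPM. A second copy of Rps18, Gm6436, was counted at 0 to 0.872 CPM in the 6 mice and at 4.45 to 8.74 CPM in the other 4. WT mice had 0 to 5.72 CPM of Gm6436. With all annotated copies summed, Rps18 was 63.6 to 81.6 CPM in the 6 mice, 74.5 to 82.5 CPM in the other 4 and 55.4 to 76.1 CPM in WT. For both Rps18 and Rps28 the difference in means between homozygous and WT mice was larger than that of the most counted copy. The sum of Rps18 and Gm10260 was 62.4 CPM ± 7.79 (SD, n = 6) in WT and 71.6 CPM ± 6.01 (SD, n = 10) in homozygous mice, and that of Rps28 and Gm10263 was 24.1 CPM ± 4.83 (SD, n = 6) in WT and 31.5 CPM ± 3.70 (SD, n = 10) in homozygous mice.

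Rpl3 (ENSMUSG00000060036.11, chr15:80077791-80091868, - strand), a protein close to the peptidyl transferase center, split along other mice. It had 95.2 CPM ± 8.89 (SD, n = 6) in WT, 92.7 CPM ± 12.1 (SD, n = 7) in heterozygous and 132 CPM ± 29.2 (SD, n = 10) in homozygous mice (0.48 against WT on the log2 scale, SE 0.13, adjusted p = 0.0147). WT mice ranged from 79.5 to 105 CPM. Homozygous F2, F5 and M3 had 88.8, 96.7 and 91.4 CPM, inside that range, and the remaining 7 had 134 to 170 CPM, all above it.

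Rpl3-ps1, a processed pseudogene on chromosome X, followed the reverse pattern. It holds 63.9% of the 50-base sequences of Rpl3 and matches 1207 of 1209 coding bases. F2, F5 and M3 had 57.8, 50.8 and 48.4 CPM of Rpl3-ps1, like the WT mice at 41.0 to 60.7 CPM, and the remaining 7 homozygous mice had 4.22 to 10.8 CPM. Rpl3-ps1 itself was lower in homozygous than in WT mice (-1.37 on the log2 scale, SE 0.45, adjusted p = 0.0432). The sum of both was 144 CPM ± 14.9 (SD, n = 6) in WT and 153 CPM ± 11.1 (SD, n = 10) in homozygous mice.

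Rpl30 (ENSMUSG00000058600.11, chr15:34440505-34443640, - strand), a protein of the large subunit, had 25.9 CPM ± 5.28 (SD, n = 6) in WT and 33.2 CPM ± 4.49 (SD, n = 10) in homozygous mice (0.35 on the log2 scale, SE 0.11, adjusted p = 0.0432). The call was lost in 16 of 38 other settings, 10 of them with 1 mouse left out (WT M1, M2, M3 or M4, or homozygous F1, F3, M2, M3, M4 or M5), and its sign turned in 1 more. In all, 5 of 10 homozygous mice were above all WT mice, whose range was 19.1 to 33.4 CPM. Its copy Gm12191 on chromosome 11 fell from 17.3 CPM ± 4.57 (SD, n = 6) in WT to 10.4 CPM ± 4.34 (SD, n = 10) in homozygous mice (-0.84 on the log2 scale, SE 0.17, adjusted p = 0.0021). Homozygous F2 and F5 had 15.4 and 20.5 CPM of it, with 28.7 and 27.1 CPM of Rpl30, among the 3 lowest homozygous values. The summed level of the pair was 43.2 CPM ± 9.05 (SD, n = 6) in WT and 43.6 CPM ± 4.10 (SD, n = 10) in homozygous mice.

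Rps7 (ENSMUSG00000061477.3, chr12:28630854-28635953, - strand), a small subunit protein that can also bind Mdm2, was the exception. It had 15.7 CPM ± 2.06 (SD, n = 6) in WT and 21.03 CPM ± 3.61 (SD, n = 10) in homozygous mice (0.42 on the log2 scale, SE 0.12, adjusted p = 0.0218), with 8 of 10 homozygous mice above the highest WT mouse at 18.2 CPM. Its most counted copy, Gm6472 on chromosome X, was not called, with 33.9 CPM ± 6.15 (SD, n = 6) in WT and 32.4 CPM ± 5.49 (SD, n = 10) in homozygous mice (-0.08 on the log2 scale, SE 0.12, adjusted p = 0.72). The call of Rps7 was lost without WT F1, M1 or M4, as that of Rps2 was without WT M1.

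Rpl34, a large subunit protein on chromosome 3, showed the same kind of split without being called against WT. It is named here after its values were seen. Homozygous F4, F5, M1 and M5 had 54.4, 47.7, 42.0 and 62.3 CPM, above the highest WT mouse at 37.5 CPM, and the other 6 had 26.3 to 32.5 CPM. In the same 4 mice Rpl34-ps1 on chromosome 6 was counted at 0.488, 0.363, 0 and 0 CPM, against 15.8 to 25.5 CPM in the other homozygous mice and 12.5 to 21.5 CPM in WT. Rpl34 differed from WT by 0.38 on the log2 scale (SE 0.17, adjusted p = 0.152).

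**Figure D3:**
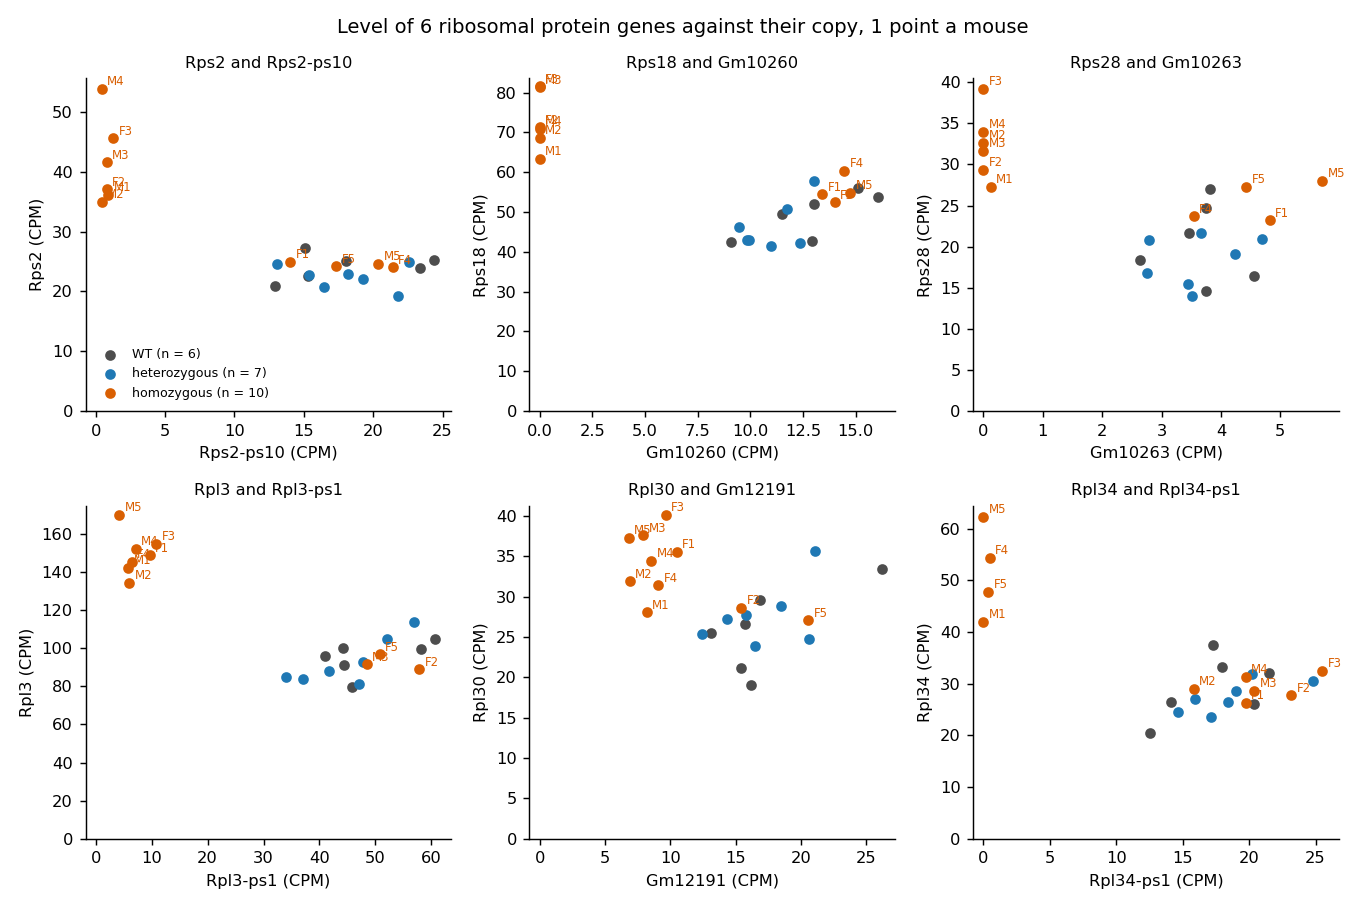
Level of 6 ribosomal protein genes (vertical axes, CPM) against that of their most counted annotated copy (horizontal axes, CPM), 1 point a mouse, with the homozygous replicates named. For Rps2, Rps18, Rpl3 and Rpl34, homozygous mice with little of the copy (0.436 to 1.26 CPM of Rps2-ps10, 4.22 to 10.8 CPM of Rpl3-ps1) lie above all other homozygous mice, while for Rps28 and Rpl30 the values overlap.

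The sequences below show how little separates each gene from its copy, as 30 bases of coding sequence in GENCODE M21 transcripts (GRCm38), 5′ to 3′ along the transcript, with the bases that differ in capitals. No sequence is shown for Rps2-ps10.
Rpl3, chr15:80082515-80082544, - strand: gggcttcctgcctcgCaagcgcagcagccg
Rpl3-ps1, chrX:13202613-13202642, + strand: gggcttcctgcctcgAaagcgcagcagccg
Rps18, chr17:33952494-33952523, - strand: agaactcacggaggaTgaggtggagcgagt
Gm10260, chr13:97760389-97760418, - strand: agaactcacggaggaCgaggtggagcgagt
Rps28, chr17:33823241-33823270, - strand: gttcgagagggtgacGtgctcaccctattg
Gm10263, chr13:73318001-73318030, + strand: gttcgagagggtgacAtgctcaccctattg
Rpl30, chr15:34442692-34442721, - strand: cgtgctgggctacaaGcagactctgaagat
Gm12191, chr11:49678948-49678977, - strand: cgtgctgggctacaaAcagactctgaagat
Rps7, chr12:28635604-28635633, - strand: atcgTgaagcccaatggcgagaagccGgac
Gm6472, chrX:152910070-152910099, - strand: atcgGgaagcccaatggcgagaagccAgac
Rpl34, chr3:130729070-130729099, - strand: gaaagcacctaaatcTgcatgtggcgtgtg
Rpl34-ps1, chr6:71124726-71124755, + strand: gaaagcacctaaatcCgcatgtggcgtgtg

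Over the whole aligned coding sequence the 7 pairs differed by 1 to 5 bases. Rps28 and Gm10263 differed at 1 base, Rpl30 and Gm12191 at 1 of 345, Rpl3 and Rpl3-ps1 at 2 of 1209, Rpl34 and Rpl34-ps1 at 2 of 353, Rps7 and Gm6472 at 3 of 582, Rps18 and Gm10260 at 4 of 456, and Rps2 and Rps2-ps10 at 5 of 879. The longest run without a difference was 728 bases in Rpl3 and 162 bases in Rps28, so many 50-base reads fit both members of a pair equally.

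Some copies were nearly uncounted in homozygous mice alone. Of the 37 copies with a WT median of at least 5 CPM, 5 were under 25% of that median in at least 1 homozygous mouse and in no WT or heterozygous mouse: Rps2-ps10, Gm10260, Rpl3-ps1, Rpl34-ps1 and Gm6136, a copy of the untested Rpl6l. Another 6 fell that low in at least 1 WT or heterozygous mouse. Homozygous mice of both number ranges were affected, but unevenly. Little Rps2-ps10 was found in 5 of the 6 homozygous mice numbered 03xx and, of the 4 numbered 04xx, in M4 alone. Little Rpl34-ps1 was found in M1 alone of the 03xx mice and in 3 of the 4 numbered 04xx. A link between number range and these copies was not tested. Of the mice with the highest immediate-early levels, F2, M1 and M2 had little Rps2-ps10 and F1 had 14.0 CPM.

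Counts of each gene were then summed with those of all its annotated copies and the fit was repeated, an alternative chosen after seeing these values. The number called in homozygous against WT mice dropped from 6 to 1, and 5 genes, Rpl3, Rpl30, Rps18, Rps2 and Rps7, were lost. Rps28 was still called, with a log2 fold change of 0.33 (adjusted p = 0.0296). The log2 fold change of Rps2 became -0.01 (adjusted p = 0.948), that of Rpl3 0.07 (adjusted p = 0.593), that of Rps18 0.13 (adjusted p = 0.279), that of Rpl30 -0.05 (adjusted p = 0.785) and that of Rps7 0.10 (adjusted p = 0.465). Adding a copy that does not differ lowers a fold change by construction, which applies to Rps7 and Gm6472. With only the pseudogenes named -ps added, 3 genes were called. No other setting except the 04xx homozygous mice alone, with 2 calls, and the fit without WT replicate M1, with 3 calls, moved the count of 6 by over 1.5 times. The shares of all genes called in these fits are not given here. The drops can therefore not be set against a background.

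**Figure D4:**
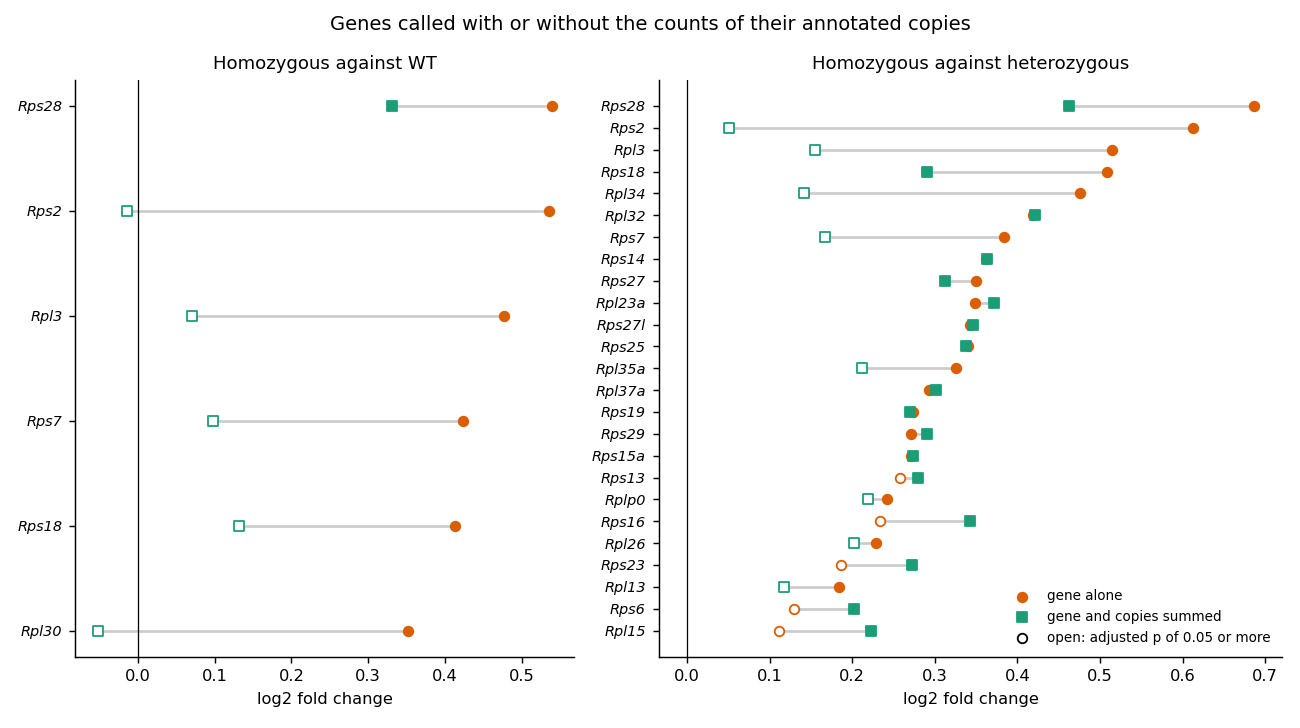
Log2 fold change (horizontal axes) of genes called with or without the counts of their copies, in homozygous against WT (left) and homozygous against heterozygous mice (right), with circles for the gene alone, squares for gene and copies summed, and open symbols for an adjusted p of 0.05 or more. On the left Rps28 is the filled square, at 0.33, and on the right Rps14 and Rpl32 stay in place while Rps2 moves from 0.61 to 0.05.

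Against heterozygous mice, which carry Cre and 1 floxed allele, homozygous mice had more ribosomal protein genes called. Of 79 genes, 21 were higher and 0 lower, 26.6% of the genes tested, beside 11.1% of all genes called higher and 11.7% called lower. The calls fell on 12 small subunit and 9 large subunit genes, and 2 genes, Rps28 and Rps2, exceeded 1.5-fold, beside 2.32% of all genes upward. The median log2 fold change was 0.17 over the 79 genes and 0.00 over all genes, and 64 of 79 values were positive. Both comparisons share the homozygous mice, and 5 genes were called in both. Rps14, on the chromosome of the floxed gene, and Rpl32 had the smallest p among the genes called against heterozygous mice alone, and both were still called with copies added.

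Rps14 (chromosome 18), a small subunit protein of the platform, had lowest, median and highest values of 76.4, 83.7 and 100 CPM in heterozygous, 91.7, 109 and 124 CPM in homozygous and 81.2, 103 and 111 CPM in WT mice. The log2 fold change was 0.36 against heterozygous mice (SE 0.07, adjusted p = 0.0014) and 0.14 against WT (SE 0.08, adjusted p = 0.246). Heterozygous M1 was the only heterozygous mouse above the lowest homozygous mouse. Rpl32 (chr6:115805505-115808747, - strand) had 65.0 CPM ± 6.62 (SD, n = 7) in heterozygous and 86.6 CPM ± 10.1 (SD, n = 10) in homozygous mice (0.42 on the log2 scale, SE 0.09, adjusted p = 0.0016), with WT mice between, at 73.5 CPM ± 14.0 (SD, n = 6). Rpl37a, higher by 0.29 on the log2 scale (SE 0.07, adjusted p = 0.0045), and Rps28 were the 2 genes in which every homozygous mouse lay above every heterozygous mouse. How many of all tested genes separate in this way was not counted. For Rpl37a the lowest homozygous value was 66.7 CPM and the highest heterozygous value 65.3 CPM.

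With the counts of copies added, 18 genes were called against heterozygous mice. Of these, 13 were among the first 21, 8 of the 21 were lost (Rpl13, Rpl26, Rpl3, Rpl34, Rpl35a, Rplp0, Rps2 and Rps7) and 5 were gained (Rpl15, Rps13, Rps16, Rps23 and Rps6). Within the number ranges, 11 genes were called with the 03xx homozygous mice alone and 11 with the 04xx mice alone. The count was 12 without heterozygous replicate F4 and 29 without heterozygous replicate M1. The shares of all genes called under these settings are not given here, so the counts cannot be set against a background.

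**Figure D5:**
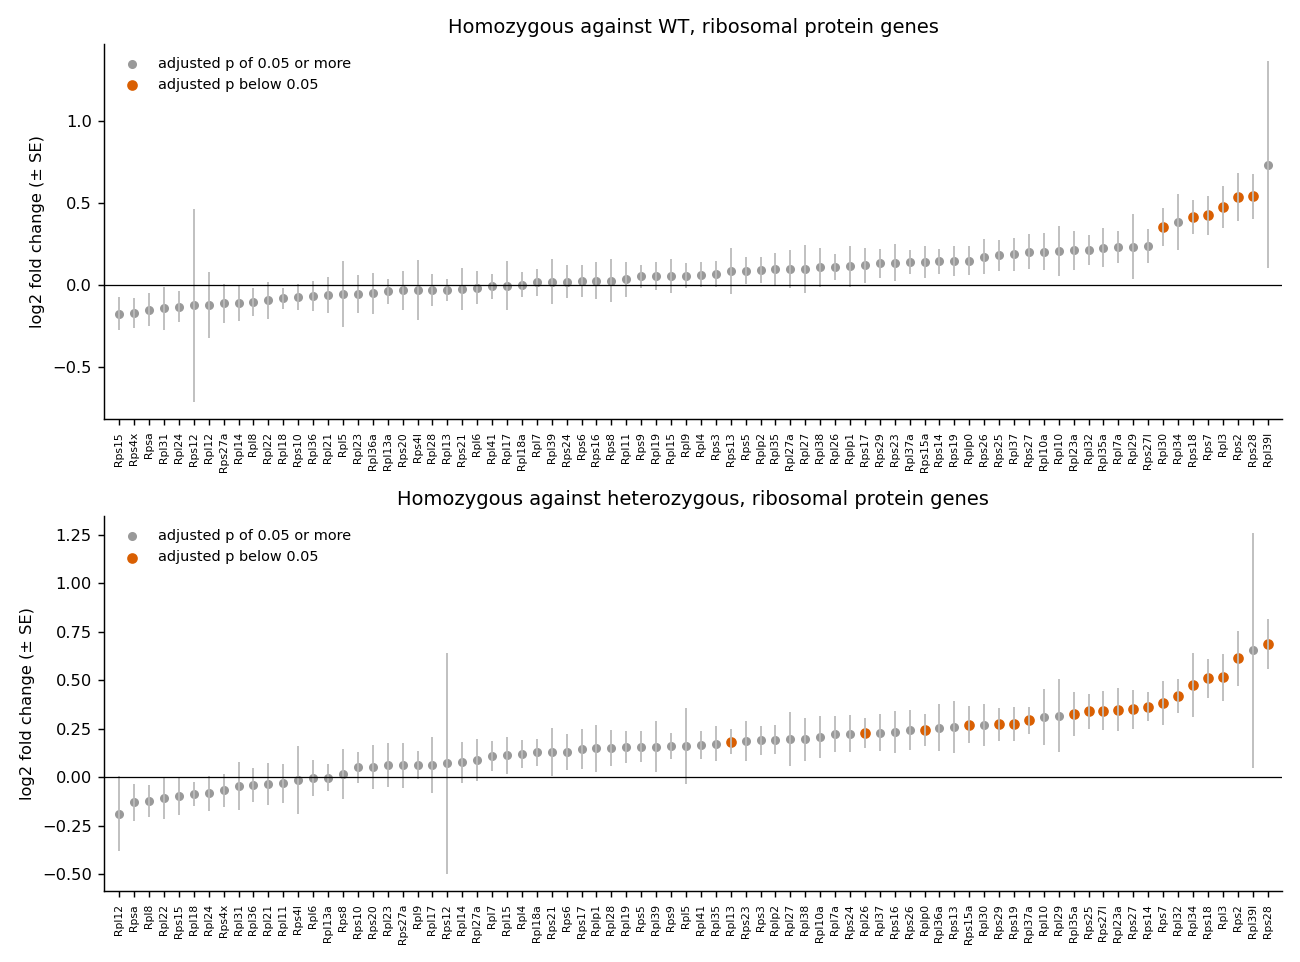
Log2 fold change with SE (vertical axes) of tested ribosomal protein genes, sorted along the horizontal axis, for homozygous against WT (top) and homozygous against heterozygous mice (bottom), with called genes in orange. The 6 calls on top lie between 0.35 and 0.54, the calls below between 0.18 and 0.69, and no gene was called lower.

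Heterozygous mice differ from WT littermates in carrying Thy1-Cre, so losing neuronal Bin1 from 1 allele and carrying Cre cannot be told apart. Homozygous mice also differ from WT littermates in carrying Cre. In heterozygous against WT mice, 0 of 79 ribosomal protein genes were called by edgeR, and 0 by DESeq2 and by limma-voom. The background was the same, 0% of all genes. At an unadjusted p below 0.05 there were 5 genes, all lower, beside 7.73% of all genes, and 68 of 79 values were negative with a median log2 fold change of -0.09 against 0.00 over all genes. Rpl13 had the smallest p, with 142 CPM ± 21.04 (SD, n = 6) in WT and 126 CPM ± 11.8 (SD, n = 7) in heterozygous mice (-0.21 on the log2 scale, SE 0.07, adjusted p = 0.503).

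Between the sexes, 0 of 79 genes were called by edgeR, DESeq2 or limma-voom, beside 0.0852% of all genes. At an unadjusted p below 0.05, 10 genes, 9 of them lower in males, stood beside 5.83% of all genes, and the median log2 difference of males from females was -0.11 against 0.00 over all genes. Rpl13 again had the smallest p (log2 difference -0.17, SE 0.05, adjusted p = 0.68). The 4 genes on chromosome X include Rps4x, with a log2 difference of -0.11 (SE 0.07, adjusted p = 0.863).

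The difference of the homozygous effect between males and females was tested as an interaction, and 0 of 79 genes were called by the same 3 tools, as were 0% of all genes by edgeR. At an unadjusted p below 0.05 there were 5 genes, all with a more positive effect in males, beside 4.99% of all genes. The median interaction was 0.23 on the log2 scale against 0.00 over all genes, with only 2 WT females behind it. Those 2 females had shares of 0.477% and 0.479% of counts in ribosomal protein genes, and the 4 WT males had 0.315% to 0.451%. Rps16 had the smallest p of the interaction (0.57, SE 0.20, adjusted p = 0.907).

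Of the genes listed for their roles, Rpl3 alone was called in homozygous against WT mice. Of the proteins of the ribosomal stalk, Rplp0 had 171 CPM ± 23.6 (SD, n = 6) in WT and 190 CPM ± 23.7 (SD, n = 10) in homozygous mice (0.15 on the log2 scale, SE 0.09, adjusted p = 0.29). Rplp1 and Rplp2, which attach to it in pairs, had log2 fold changes of 0.11 (SE 0.13) and 0.09 (SE 0.08). Rps6, the substrate of S6 kinases, stood at 72.4 CPM ± 9.47 (SD, n = 6) in WT, next to 73.7 CPM ± 8.07 (SD, n = 10) in homozygous mice. Rps3, at the mRNA entry, had 153 CPM ± 15.5 (SD, n = 6) in WT and 161 CPM ± 15.4 (SD, n = 10) in homozygous mice.

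Rps19, mutated in Diamond-Blackfan anemia, had log2 fold changes of 0.15 (SE 0.09, adjusted p = 0.32) against WT and 0.27 (SE 0.09, adjusted p = 0.0249) against heterozygous mice. Rpl5 and Rpl11, the Mdm2-binding pair, had -0.06 (SE 0.20) and 0.03 (SE 0.11) against WT. Rpl10, needed for the joining of the subunits, had 0.21 (SE 0.15) and Rpl41, the smallest of the proteins, -0.01 (SE 0.07). Rps27 and Rps29, both zinc-binding, had 0.20 (SE 0.11) and 0.13 (SE 0.09) against WT, and were called against heterozygous mice at 0.35 (adjusted p = 0.0155) and 0.27 (adjusted p = 0.0204). Rps27a, made as a fusion with ubiquitin, had -0.11 (SE 0.12), and Rpsa, also known as the laminin receptor, -0.15 (SE 0.10) against WT. Rpl17, the other gene of the class on chromosome 18, had 29.7 CPM ± 5.74 (SD, n = 6) in WT and 29.9 CPM ± 5.91 (SD, n = 10) in homozygous mice.

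Several ribosomal proteins have a second gene. Rpl10l was counted at 0 CPM in all mice and Rpl3l, known from striated muscle, at 0.159 CPM at most. Rpl39l had 9.09 counts a mouse on average and a median of 0.595 CPM in WT and 0.560 CPM in homozygous mice, with 1 homozygous mouse at 3.23 CPM (0.73 on the log2 scale, SE 0.63, adjusted p = 0.496). Its parent Rpl39, a protein of the exit tunnel, had 17.5 CPM ± 4.24 (SD, n = 6) in WT and 17.9 CPM ± 3.09 (SD, n = 10) in homozygous mice. Rps27l, a target of p53, stood at 38.9 CPM ± 8.06 (SD, n = 6) in WT, 36.4 CPM ± 3.97 (SD, n = 7) in heterozygous and 46.1 CPM ± 4.51 (SD, n = 10) in homozygous mice, and was called against heterozygous mice alone (0.34 on the log2 scale, SE 0.10, adjusted p = 0.0146). Rps4l had 31.5 CPM ± 3.85 (SD, n = 6) in WT and 29.9 CPM ± 7.69 (SD, n = 10) in homozygous mice.

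Of 8 ribosomal protein genes that the symbol rule leaves out, 1 was called against WT. Rpl22l1, the paralog of Rpl22, rose from 12.7 CPM ± 2.64 (SD, n = 6) in WT to 18.6 CPM ± 5.73 (SD, n = 10) in homozygous mice (0.58 on the log2 scale, SE 0.18, adjusted p = 0.0372). Rpl22 itself had 19.2 CPM ± 2.62 (SD, n = 6) in WT and 18.2 CPM ± 2.72 (SD, n = 10) in homozygous mice. Rpl7l1 and Rpl36al had log2 fold changes of 0.08 (SE 0.06) and 0.10 (SE 0.09). Rps3a1, Rack1, Fau and Rps27rt were not called.

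The genes moved together from mouse to mouse. Across the 23 mice, the Pearson correlation of each gene's log2 CPM with the mean of the other 78 had a median of 0.74 and exceeded 0.5 in 64 of 79 genes. This is a description over mice of 3 genotypes that share their scaling within each library. Rps12 was least like the rest (r = -0.18), at 0 to 8.93 CPM a mouse, followed by Rpl39l (r = -0.11) and Rps4l (r = -0.03). The genes with a split copy had r = 0.43 for Rps2, 0.57 for Rpl3 and 0.66 for Rps18.

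Start sites were read from RefSeq (GRCm38.p6) for 60 of the 82 genes, which have 72 annotated starts there. A C at the first base followed by at least 4 further C or T bases stood at 13 of these starts (18.1%), against 2.51% of 32851 starts of all genes. A tract that begins some bases away from the annotated start was not counted, so a gene without a match may still have one. The windows below run from 10 bases before the start to 20 bases from it, with that tract in capitals, for Rps6 and Rps18, which have one, and for Rps2 and Rps28, which have none at the annotated start.
Rps6, chr4:86857348-86857377, - strand: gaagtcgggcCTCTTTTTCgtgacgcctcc
Rps18, chr17:33955646-33955675, - strand: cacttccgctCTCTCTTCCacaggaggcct
Rps2, chr17:24720053-24720082, + strand: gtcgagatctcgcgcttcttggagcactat
Rps28, chr17:33824543-33824572, - strand: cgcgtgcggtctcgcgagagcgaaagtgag

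Searched on both strands of 300 bases from 250 before to 50 after the start, the motif CCGGAA, a core of ETS factor sites, occurred at 47.2% of the starts of ribosomal protein genes and 14.9% of all starts. GGGCGG, an Sp1 box, occurred at 58.3% against 35.7%, CTCGCGAGA at 11.1% against 0.676%, AAGATGGC, within sites of YY1, at 9.72% against 2.75%, and TATAAA at 8.33% against 13.6%. These are letter matches and describe the class, not differences between genotypes.

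Other genes of protein synthesis were compared by lists, whose counts stand beside 5.66% of all genes called higher and 7.09% called lower against WT. Of 46 ribosome biogenesis genes, 5 were higher and 0 lower in homozygous than in WT mice, with a median log2 fold change of 0.13. The largest rise was that of Dimt1, a ribosomal RNA methyltransferase, from 14.2 to 20.2 CPM (0.52 on the log2 scale, SE 0.12, adjusted p = 0.0042). Of 39 initiation factors, 7 were higher and 1 lower, led by Eif4a1, the helicase of the cap complex (0.32 on the log2 scale, SE 0.08, adjusted p = 0.0128), while Eif4g3, a scaffold, was lower (-0.30 on the log2 scale, SE 0.07, adjusted p = 0.0068). Of 12 elongation and recycling genes 3 were higher, led by Abce1, which splits ribosomes (0.45 on the log2 scale, SE 0.10, adjusted p = 0.0041), although the median of that list was -0.04.

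Of 23 regulators of ribosomal protein mRNAs and of Myc activity, 4 were higher and 2 lower. Max, the partner of Myc, had the largest rise (0.93 on the log2 scale, SE 0.25, adjusted p = 0.0141), and Rptor, a subunit of mTORC1, the largest fall (-0.31 on the log2 scale, SE 0.07, adjusted p = 0.0062). Myc itself rose from 54.2 to 92.2 CPM (0.74 on the log2 scale, SE 0.17, adjusted p = 0.0050). Of 19 other genes with TOP mRNAs 1 was higher, Eif3e (0.23 on the log2 scale, SE 0.08, adjusted p = 0.0476). Of 17 genes of ribosome surveillance 1 was higher, Mdm2 (0.27 on the log2 scale, SE 0.06, adjusted p = 0.0078), and 2 were lower, with the largest fall in Gcn1l1 (-0.54 on the log2 scale, SE 0.10, adjusted p = 0.0016). All 77 tested genes of mitochondrial ribosomes missed the threshold against WT, with a median of 0.05, and against heterozygous mice 13 were higher and 1 lower, beside 11.1% and 11.7% of all genes. Of 40 tested pseudogenes named -ps, 2 were higher, with the larger rise in Rpl14-ps1 (1.06 on the log2 scale, SE 0.35, adjusted p = 0.0487), and 2 were lower, Rpl30-ps10, with a mean of 1.30 CPM in WT and 0.0471 CPM in homozygous mice, and Rpl3-ps1.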

How the data were processed

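Microglia RNA was amplified from 10 ng with a SMARTer v4 kit and sequenced as single 50-base reads. The authors aligned the reads to mm10 with Ensembl release 84 and deposited expected counts estimated by RSEM, and they tested genes with DESeq2; strand setting, gene filter and the handling of reads with several matches are not given in the sources used here. Expected counts were rounded. Symbols were matched for 42929 of 43411 ids. Genes kept by filterByExpr were tested with edgeR 4.0.16 in R 4.3.3 (TMM scaling, quasi-likelihood test, terms for genotype and sex, Benjamini-Hochberg over all genes). DESeq2 1.42.0 and limma 3.58.1 served as alternatives, and the code was tested on simulated data. CPM use TMM-scaled totals. Of 25 labelled mice, 2 are not analysed here. Replicates are separate mice.

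The genes and lists were chosen with earlier results of these data known. The genes named are all those called in homozygous against WT mice (at most 8 in each direction), the gene with the smallest p of each of 5 comparisons, the 3 highest and 3 lowest per kilobase, genes listed for a role, paralogs, both genes on chromosome 18, those most and least like the others, and the called genes with the largest rise and fall of each list. A gene under these rules is not reported here in the text or plots, though it is in all counts. Transcript length is the median over coding transcripts of GENCODE M21. Correlations used log2(CPM + 0.5). Totals of 10812887 to 16734746 counts a mouse limit the precision for genes of few CPM.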

Additional observations from a re-analysis of the deposited data

Results flagged for a closer look

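In 105 sets of values (34 named genes and the share of counts, in each genotype), 7 held 1 mouse that stood apart by Dixon's test, and chance alone gives about 1 in 20. Rpl30 was 35.7 CPM in heterozygous F1, against 23.9 to 28.8 CPM in the other heterozygous mice. Rps14 was 100.2 CPM in heterozygous M1, against 76.4 to 86.2 CPM. Rpl39 was 25.6 CPM in WT F2, against 14.2 to 17.9 CPM in the other WT mice. Among homozygous mice, Rpl39l was 3.23 CPM in M1 (0.0731 to 1.36 CPM in the others) and Rps27l was 35.9 CPM in the same mouse (43.0 to 50.9 CPM). Rps3 was 192.5 CPM in M5 (144 to 170 CPM) and Rps6 was 91.8 CPM in M4 (64.0 to 78.6 CPM).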

How the results depend on the processing

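Ribosomal protein genes called in homozygous against WT mice numbered 6, and 1 to 8 over 15 other settings. They numbered 2 with the homozygous mice numbered 04xx alone and 3 with the counts of -ps pseudogenes added. With those of all annotated copies added (chosen after seeing the data) 1 was called, and 3 to 6 with 1 mouse left out. Against heterozygous mice 21 were called, and 11 to 27 over 15 other settings. The count was 11 with the 03xx or the 04xx mice alone and 12 to 29 with 1 mouse left out. Shares of all genes called in these other settings are not given here. The cause of the changes between number ranges was not tested; both fits hold fewer mice. The log2 fold change of Rps2 against WT turned to -0.0133 with -ps pseudogenes and -0.0136 with annotated copies added, and that of Rpl30 to -0.0520 with annotated copies added. Rps28 lost its call against WT only with the 04xx mice alone. With -ps pseudogenes the share of counts was 0.452% in heterozygous and 0.528% in homozygous mice. Heterozygous against WT, sex and the interaction gave 0 calls in every setting run. The median log2 fold change of homozygous mice was 0.12 to 0.25 against heterozygous mice. Against WT it stayed positive but fell as low as 0.0046, with 0.16 as the highest value. That highest value came with scaling by library totals alone, where the median of all genes was 0.11. This scaling moved the median of all genes by 0.10 in homozygous against WT mice. No paired analysis was possible because the animal numbers are unique to each mouse and shared by no groups.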
